A study of Mus musculus with 4 samples.

Results

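The collagen genes encode the chains of the collagen superfamily, and they were taken as every row of the expression table whose Entrez-based probe set ID belongs to a gene named Col, a number, a and a number. This gave 42 genes of 16492 probe sets tested. The platform annotation names 40 of them. Col6a3 and Col12a1 are not listed there and were named through the Entrez number in their probe set ID, which equals the annotated Entrez identifier for 15250 of 15270 listed probe sets. Col6a6 and Col28a1, the remaining genes of that form in the RefSeq gene table, have no row with their Entrez identifier and were not analysed here. Each gene had 1 probe set.

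RNA came from quadriceps muscle of 4 mice of the strain labelled B6C3Fe a/a-Ttnmdm/J, each on an Affymetrix array of its own. The mdm mutants were 2 mice genotyped as carrying mutant titin, and the wild types were 2 mice of the same strain label genotyped as carrying wild type titin. Titin is the giant spring protein of the sarcomere, and mdm is a spontaneous mutation of its gene that causes an early muscular dystrophy. The labels give no age, sex, treatment or number of mutant alleles. The 9 markers of skeletal muscle fibres averaged 14.25 and 14.17 in the mdm mutant mice, against 14.21 and 14.26 in the wild type mice, on the log2 scale of the table. These genes lie near the top of that scale, and Acta1 read 14.98, the array maximum, in all 4 mice. Because the arrays share 1 distribution of values, such averages can differ little and do not measure fibre content.

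Collagens are built from chains wound into a triple helix, and their classes differ in the structure the helices form. Fibrillar collagens give the tensile fibres of the endomysium, perimysium and tendon. Network collagens include collagen IV, which makes the sheets of basement membranes. FACIT collagens sit on the surface of fibrils, and beaded collagen VI links the basement membrane of the muscle fibre to the surrounding matrix. Defects of collagen VI cause muscle disease in humans, and an excess of fibrillar collagen is the substance of muscle fibrosis. Multiplexins are basement membrane collagens, and transmembrane collagens stay anchored in the cell that makes them.

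Of the 42 collagen genes, 5 rose in mdm mutant muscle, 0 fell and 37 did not pass the test. Those that rose were Col8a1, Col19a1, Col23a1, Col7a1 and Col5a2, each from a different class. Each difference is the mdm mutant mean less the wild type mean of log2 values, ± its standard error from limma (n = 2 mice per group), and a gene passed at a Benjamini-Hochberg adjusted p under 0.05 over all probe sets. The share of collagen genes that rose, 11.9%, stands beside 6.46% of all probe sets tested, and the share that fell, 0.00%, beside 6.36%. In either direction the collagen share of 11.9% was close to the 12.8% of all probe sets. That match did not hold by brightness. Of the 8246 brighter probe sets 21.7% passed, against 10.7% (3 genes) of the 28 collagen genes among them. Of the 8246 dimmer probe sets 3.98% passed, against 14.3% (2 genes) of the 14 collagen genes among them. Without Col6a3 and Col12a1 the count was 5 higher and 0 lower of 40. At an unadjusted p under 0.05 there were 15 collagen genes (35.7%), beside 30.7% of all probe sets. With variance moderation switched off, 0 collagen genes and 1 probe set of the whole array passed.

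The median difference of the 42 genes was 0.04, against −0.02 for all probe sets. Differences lay between −0.37 and 0.94, and 2 of the 42 genes (4.76%) differed by at least 0.5 in either direction, against 5.19% of all probe sets. Mutant and wild type values were fully separated in 25 collagen genes, or 59.5%, against 60.9% of all probe sets. In 13 of them (31.0%) the mdm mutant mice were higher and in 12 (28.6%) lower, against 26.7% and 34.2% of all probe sets. In 25 of the 42 genes the gap between mice of 1 group was larger than the difference between the groups, or 59.5%, against 50.7% of all probe sets. The arrays share 1 distribution of values. The hybridization controls, added in fixed amounts to the hybridization mix and not to the RNA, averaged 11.01 and 10.99 in mdm mutant mice, against 11.10 and 11.12 in wild type mice. Centring the arrays on these controls raises the median difference of all probe sets to 0.09. Under that scaling 9 collagen genes were higher and 0 lower, beside 2829 higher and 603 lower probe sets overall in place of 1066 and 1049.

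**Figure D1:**
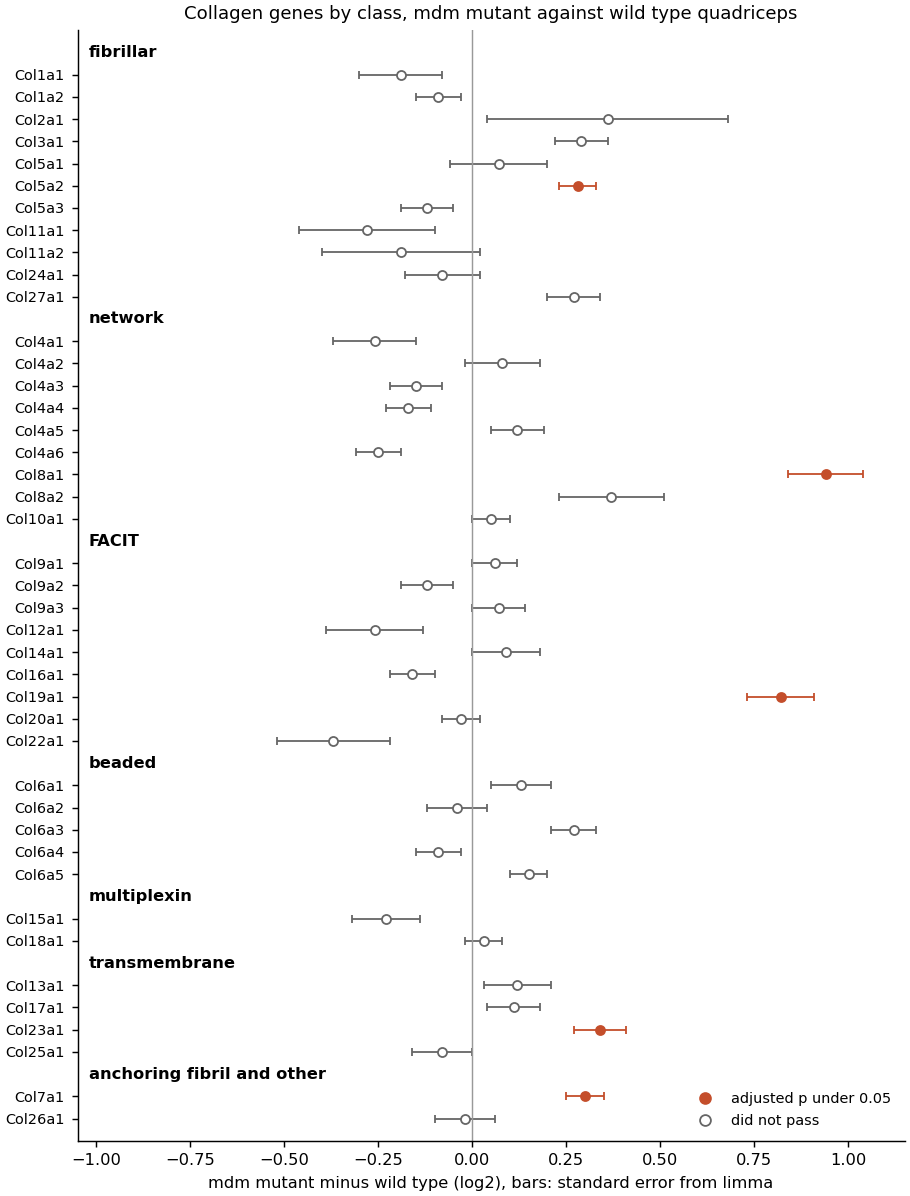
Difference between mdm mutant and wild type quadriceps (x axis, log2 scale) for each of the 42 collagen genes, grouped by class down the page, with bars for the standard error from limma and filled points for genes at an adjusted p under 0.05. The 5 filled points lie to the right of 0, Col8a1 and Col19a1 farthest out at 0.94 and 0.82, and most open points lie within 0.3 of 0.

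Col8a1 rose most. It encodes a chain of collagen VIII, a short-chain network collagen of vessel walls and of the cornea. Its level was 8.79 and 8.51 in mdm mutant mice, against 7.72 and 7.71 in wild type mice. Both mutant values lie above both wild type values, and the wild type mice are nearly equal. The difference was 0.94 ± 0.10, or 1.91-fold (95% interval 0.69 to 1.18, adjusted p = 0.00932). It did not pass without wild type 1 (difference 0.94, adjusted p = 0.0508) or without wild type 2 (0.93, adjusted p = 0.0507).

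Col19a1 encodes a FACIT collagen of basement membrane zones that is known from differentiating muscle cells. It stood at 7.38 and 7.58 in mdm mutant mice, against 6.73 and 6.59 in wild type mice. The groups are well separated, by more than the gap between mice of either group. The difference was 0.82 ± 0.09, or 1.77-fold (95% interval 0.60 to 1.05, adjusted p = 0.0095). It was the 1 collagen gene that passed with each of the 4 mice left out in turn, with adjusted p between 0.0201 and 0.0498. Its probe set belongs to the dimmer 50% of the array, as do those of 14 collagen genes in all. Of 5 satellite cell markers, 2 rose in the same mice, Myf5 and Pax7, by 0.95 ± 0.08 and 0.29 ± 0.05 (40.0%, against 6.46% of all probe sets). The remaining 3 did not pass. Vcam1 stood at 0.25 ± 0.07 and, named after their values were seen, Cdh15 at 0.02 ± 0.05 and Calcr at −0.03 ± 0.08. The part of satellite cells in the Col19a1 result was not tested. In bulk tissue, more cells of a type and more RNA per cell, or fewer cells and less RNA per cell, cannot be told apart.

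The other rises were small. Col23a1, a transmembrane collagen, read 7.0 and 6.96 in mdm mutant mice, against 6.71 and 6.58 in wild type mice (0.34 ± 0.07, adjusted p = 0.0324). Col7a1, the chain of the anchoring fibrils best known from skin, read 7.97 and 7.97 in mdm mutant mice, against 7.67 and 7.68 in wild type mice (0.30 ± 0.05, adjusted p = 0.023). Col5a2, a chain of the collagen V that starts fibril assembly, read 10.70 and 10.67 in mdm mutant mice, against 10.44 and 10.37 in wild type mice (0.28 ± 0.05, adjusted p = 0.0328). In all 3 genes the groups do not overlap and mice of a group lie close together. None of the 3 passed with any 1 mouse left out. Their adjusted p-values then lay between 0.0633 and 0.121 for Col23a1, between 0.0714 and 0.0976 for Col7a1 and between 0.0917 and 0.137 for Col5a2. With eBayes trend and robust on, Col5a2 did not pass (adjusted p = 0.0683).

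**Figure D2:**
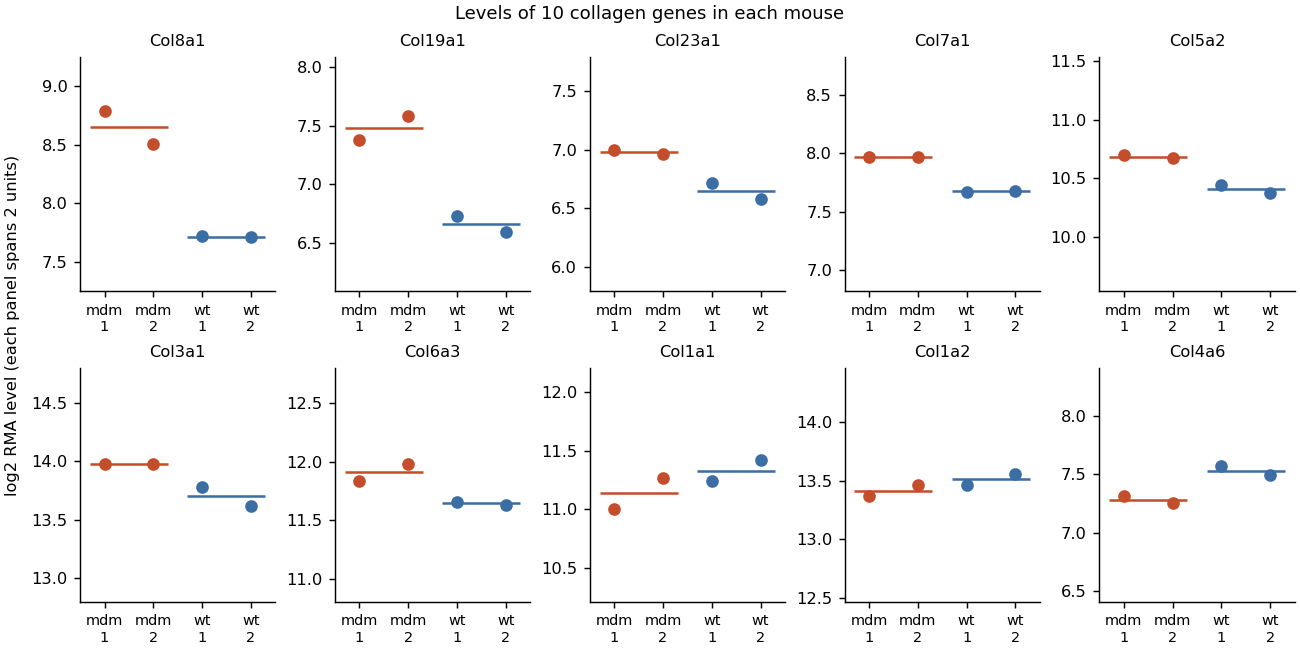
Level of 10 collagen genes in each mouse (y axis, log2 RMA units, every panel spanning 2 units), with mdm mutant mice 1 and 2 (mdm) left of wild type mice 1 and 2 (wt) and a line at each group mean. The top row shows the 5 genes that rose. The bottom row shows Col3a1 and Col6a3, higher in both mdm mutant mice at adjusted p of 0.0546 and 0.0553, Col1a1 and Col1a2, whose groups overlap, and Col4a6, lower in both mdm mutant mice at an adjusted p of 0.0521.

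Because 4 of the genes that rose have an entry in the RefSeq promoter table (GRCm38.p6), the 250 bases before their annotated start are shown, 5′ to 3′ on the strand of the gene. Capitals mark matches, on either strand, to the CCAAT box (CCAAT) and the GC box (GGGCGG). The TATA box (TATAAA), the AP-1 motif (TGANTCA) and the MCAT motif (CATTCC) were also searched and had no match in these windows.
Col8a1 promoter, chr16:57754738-57754987, minus strand: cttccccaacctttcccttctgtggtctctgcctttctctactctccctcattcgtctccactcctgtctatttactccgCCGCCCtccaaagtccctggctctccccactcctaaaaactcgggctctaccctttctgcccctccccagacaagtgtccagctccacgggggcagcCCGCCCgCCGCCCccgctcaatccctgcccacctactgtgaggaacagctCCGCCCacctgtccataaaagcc
Col19a1 promoter, chr1:24587438-24587687, minus strand: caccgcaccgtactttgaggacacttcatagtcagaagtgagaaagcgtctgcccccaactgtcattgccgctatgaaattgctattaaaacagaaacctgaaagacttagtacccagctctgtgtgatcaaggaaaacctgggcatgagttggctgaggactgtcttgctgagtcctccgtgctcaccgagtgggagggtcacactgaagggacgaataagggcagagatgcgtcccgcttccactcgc
Col23a1 promoter, chr11:51289670-51289919, plus strand: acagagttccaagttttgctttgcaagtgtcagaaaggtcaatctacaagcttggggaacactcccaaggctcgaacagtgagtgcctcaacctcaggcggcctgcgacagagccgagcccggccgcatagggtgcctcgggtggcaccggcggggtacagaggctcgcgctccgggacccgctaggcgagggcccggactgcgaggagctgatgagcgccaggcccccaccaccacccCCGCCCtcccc
Col7a1 promoter, chr9:108953336-108953585, plus strand: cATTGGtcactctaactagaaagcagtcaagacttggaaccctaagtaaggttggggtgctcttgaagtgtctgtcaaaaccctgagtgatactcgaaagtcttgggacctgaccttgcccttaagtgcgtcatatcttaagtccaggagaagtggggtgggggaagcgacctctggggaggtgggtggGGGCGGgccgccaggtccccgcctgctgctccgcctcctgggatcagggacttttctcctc
The Col8a1 window holds 4 GC boxes. The Col23a1 window has 1 GC box, the Col7a1 window has 1 GC box and 1 CCAAT box, and the Col19a1 window has no match to any of the 5 motifs. No motif searched was present in all 4 windows. The table held 36 windows for 33 of the 42 collagen genes. A GC box was present in 58.3% of them, against 32.7% of all 32851 promoter windows. For the other motifs the shares were 36.1% against 33.8% for the CCAAT box, 13.9% against 12.4% for the TATA box, 11.1% against 12.6% for the MCAT motif and 2.78% against 6.75% for the AP-1 motif. The median GC content was 59% in collagen windows and 52.4% in all windows.

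Among the 11 fibrillar genes, 1 rose (Col5a2), 0 fell and 10 did not pass the test. The median difference was −0.08, and 0.03 with the arrays centred on hybridization controls. The chains of collagen I, the main fibre of tendon, bone and scar, did not pass. Col1a1 read 11.00 and 11.27 in mdm mutant mice, against 11.24 and 11.42 in wild type mice (−0.19 ± 0.11, 95% interval −0.47 to 0.08). Col1a2 read 13.37 and 13.46 in mdm mutant mice, against 13.46 and 13.56 in wild type mice (−0.09 ± 0.06, 95% interval −0.25 to 0.07). For both chains the groups overlap. With the hybridization controls the Col1a2 difference turned to 0.02.

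Col3a1 encodes the homotrimeric collagen III of reticular fibres, which is laid down early in repair. It read 13.98 in both mdm mutant mice, against 13.78 and 13.62 in wild type mice. All mutant values are higher, and the difference of 0.29 ± 0.07 stood just outside the threshold (95% interval 0.11 to 0.46, adjusted p = 0.0546). It passed with the hybridization controls (0.40, adjusted p = 0.0213) and not with trend and robust on (adjusted p = 0.111). Col27a1, a fibrillar collagen of cartilage, stood at 0.27 ± 0.07 (adjusted p = 0.0721), and passed with the hybridization controls (0.38, adjusted p = 0.0284) and with trend and robust on (adjusted p = 0.05 after rounding). The remaining collagen V chains did not follow Col5a2, with 0.07 ± 0.13 for Col5a1 and −0.12 ± 0.07 for Col5a3, neither past the test. Col24a1 differed by −0.08 ± 0.10 without passing.

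Among the 9 network genes, 1 rose (Col8a1), 0 fell and 8 did not pass, with a median of 0.05. Col8a2, which encodes the partner chain of Col8a1, read 7.98 in both mdm mutant mice, against 7.40 and 7.83 in wild type mice (0.37 ± 0.14, adjusted p = 0.155). Wild type 2 lies close to the mutant mice, and without it Col8a2 differed by 0.59 (adjusted p = 0.0386). Col10a1, a collagen of hypertrophic cartilage, differed by 0.05 ± 0.05.

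The 6 collagen IV chains are encoded in 3 head-to-head gene pairs, and none passed the test. Col4a1 and Col4a2 form the common trimer of basement membranes around muscle fibres and capillaries. In the RefSeq table their annotated starts lie 21 bases apart on opposite strands. Col4a1 read 10.95 and 10.70 in mdm mutant mice, against 11.18 and 10.98 in wild type mice (−0.26 ± 0.11, adjusted p = 0.189). Col4a2 read 10.74 and 10.60 in mdm mutant mice, against 10.71 and 10.48 in wild type mice (0.08 ± 0.10, adjusted p = 0.654). Col4a1 minus Col4a2 was 0.21 and 0.10 in the mdm mutant mice, against 0.47 and 0.50 in the wild type mice. The signal of Col4a1 was thus above that of Col4a2 in every array, by a smaller margin in the mutant mice.

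Col4a6 and Col4a5, whose starts lie 1343 bases apart, showed a like split. Col4a6 read 7.31 and 7.25 in mdm mutant mice, against 7.57 and 7.49 in wild type mice (−0.25 ± 0.06, 95% interval −0.40 to −0.10, adjusted p = 0.0521). It passed as lower with trend and robust on (adjusted p = 0.0381) and stood at −0.14 with the hybridization controls (adjusted p = 0.155). Col4a5 differed by 0.12 ± 0.07. Col4a6 minus Col4a5 was −0.77 and −0.96 in the mdm mutant mice, against −0.49 and −0.52 in the wild type mice. In the third pair, Col4a3 and Col4a4, the differences were alike at −0.15 ± 0.07 and −0.17 ± 0.06, neither past the test. The splits are given as values, since an exact permutation test of 2 mice against 2 cannot go below p = 0.333 and no model of the within-array differences was fitted.

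**Figure D3:**
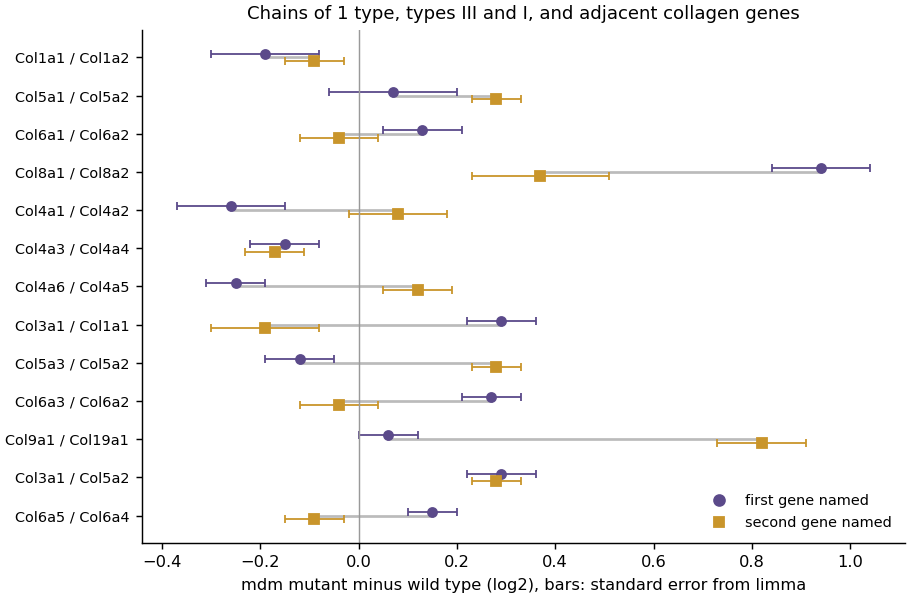
Differences between mdm mutant and wild type muscle (x axis, log2 scale, bars for the standard error from limma) for 13 pairs of collagen genes, with a circle for the gene named first and a square for the gene named second. Col4a1 and Col4a2, and Col4a6 and Col4a5, lie on opposite sides of 0, whereas the neighbours Col3a1 and Col5a2 coincide at 0.29 and 0.28.

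Other adjacent collagen genes also differed in how alike they were. Col3a1 and Col5a2 follow each other in the RefSeq gene order and had differences of 0.29 and 0.28. Col9a1 and Col19a1 are neighbours as well, with 0.06 ± 0.06 for Col9a1 beside the 0.82 of Col19a1. Col6a5 and Col6a4 stood at 0.15 ± 0.05 and −0.09 ± 0.06.

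Of the 5 beaded genes, 0 rose, 0 fell and 5 did not pass, with a median of 0.13. The muscle trimer of collagen VI is made of the chains of Col6a1, Col6a2 and Col6a3. Col6a3 read 11.84 and 11.98 in mdm mutant mice, against 11.66 and 11.63 in wild type mice (0.27 ± 0.06, adjusted p = 0.0553). Col6a1 read 10.71 and 10.84 in mdm mutant mice, against 10.71 and 10.58 in wild type mice (0.13 ± 0.08, adjusted p = 0.303). Col6a2 read 10.78 and 10.82 in mdm mutant mice, against 10.94 and 10.74 in wild type mice (−0.04 ± 0.08, adjusted p = 0.771). Col6a3 is higher in both mutant mice, the groups of Col6a1 and Col6a2 overlap, and the sign of the Col6a2 difference turned with the hybridization controls (0.07). Col6a3 passed under that scaling (0.38, adjusted p = 0.0224), as did Col6a5 (0.26, adjusted p = 0.028).

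Of the 9 FACIT genes, 1 rose (Col19a1), 0 fell and 8 did not pass. The median was −0.03, and 0.08 with the hybridization controls. Col22a1, which marks the myotendinous junction where fibres meet tendon, read 8.06 and 7.99 in mdm mutant mice, against 8.18 and 8.62 in wild type mice (−0.37 ± 0.15, adjusted p = 0.156). Col12a1, a collagen of tendon and fascia, read 8.45 and 8.30 in mdm mutant mice, against 8.46 and 8.81 in wild type mice (−0.26 ± 0.13, adjusted p = 0.23). In both genes wild type 2 stands above the other 3 mice. Col16a1 stood at −0.16 ± 0.06 (adjusted p = 0.122) and Col14a1 at 0.09 ± 0.09. Col20a1 and the cartilage chains Col9a1, Col9a2 and Col9a3 lay between −0.12 and 0.07, with none past the test.

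The fibrillar collagens XI and II showed the same kind of single-mouse pattern. Col11a1 read 8.01 and 8.09 in mdm mutant mice, against 8.04 and 8.61 in wild type mice (−0.28 ± 0.18). Col11a2 read 7.62 and 7.79 in mdm mutant mice, against 7.58 and 8.21 in wild type mice (−0.19 ± 0.21). Both genes are high in wild type 2 alone, and without that mouse the differences were 0.01 and 0.13. Without wild type 1, Col11a1 and Col22a1 passed as lower (−0.57 with adjusted p = 0.0464, and −0.60 with adjusted p = 0.0415).

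Tendon markers did not share 1 pattern over the mice. Of the 7, wild type 2 was highest for 3 (Kera, Tnmd and, named after its values were seen, Mkx), mdm mutant 2 for 3 (Thbs4 and, likewise named, Comp and Fmod) and mdm mutant 1 for Scx. Keratocan (Kera) read 10.20 and 9.99 in mdm mutant mice, against 10.54 and 11.41 in wild type mice, and tenomodulin (Tnmd) read 10.49 and 10.25 in mdm mutant mice, against 10.58 and 11.09 in wild type mice. Thrombospondin 4 (Thbs4) read 11.71 and 12.01 in mdm mutant mice, against 10.84 and 11.41 in wild type mice. The list averaged 9.77 and 9.88 in mdm mutant mice, against 9.44 and 10.07 in wild type mice, and 0 of 7 passed. Its part in the results for Col11a1, Col11a2, Col12a1 and Col22a1 was not tested.

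Col2a1, the cartilage fibril collagen, read 7.45 and 8.44 in mdm mutant mice, against 7.45 and 7.72 in wild type mice (0.36 ± 0.32, adjusted p = 0.503). It is high in mdm mutant 2 alone. Without mdm mutant 2 the difference was −0.14, and without mdm mutant 1 it was 0.85 (adjusted p = 0.037). Of 4 bone markers, mdm mutant 2 was highest for 3, Dmp1, Runx2 and, named after its values were seen, Ibsp, and wild type 2 for Sp7. Dmp1 read 6.72 and 7.41 in mdm mutant mice, against 6.42 and 6.31 in wild type mice. Sp7 read 7.09 and 7.11 in mdm mutant mice, against 7.18 and 7.22 in wild type mice. Of 6 cartilage markers, mdm mutant 2 was highest for 6. Over all probe sets that mouse was highest in 25.0%. The 6 cartilage markers averaged 6.51 and 6.75 in mdm mutant mice, against 6.45 and 6.44 in wild type mice, and the 4 measured bone markers averaged 6.61 and 7.15 in mdm mutant mice, against 6.53 and 6.52 in wild type mice. None of these 10 genes passed, and all 10 belong to the dimmer 50% of the array. Their part in the Col2a1 values was not tested.

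**Figure D4:**
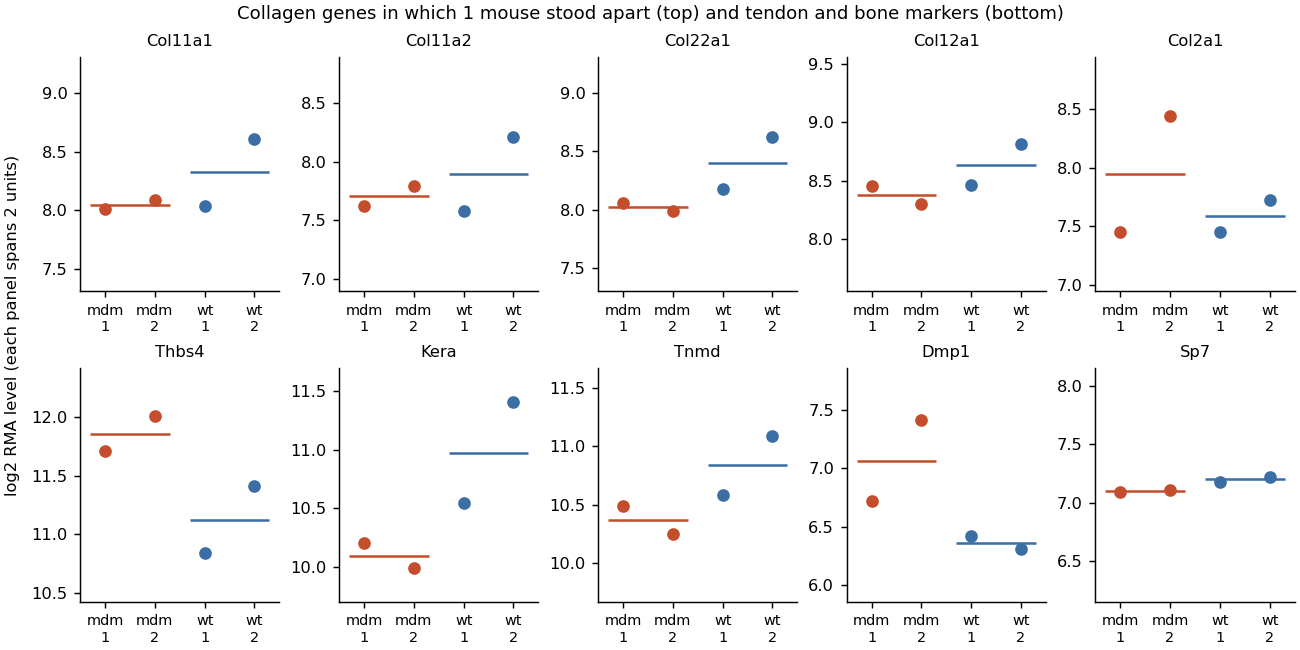
Level in each mouse (y axis, log2 RMA units, every panel spanning 2 units) of 5 collagen genes (top row) and of tendon markers Thbs4, Kera and Tnmd and bone markers Dmp1 and Sp7 (bottom row), with mdm mutant mice (mdm) left of wild type mice (wt) and a line at each group mean. Among the genes shown, mdm mutant 2 is highest for Col2a1, Thbs4 and Dmp1, and wild type 2 for Col11a1, Col11a2, Col22a1, Col12a1, Kera, Tnmd and Sp7.

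The smaller classes held 8 genes. The multiplexin Col15a1, found in the basement membranes of muscle and capillaries, read 8.67 and 8.45 in mdm mutant mice, against 8.73 and 8.85 in wild type mice (−0.23 ± 0.09, adjusted p = 0.154). Col18a1, whose protein is cut to release endostatin, differed by 0.03 ± 0.05. Among the 4 transmembrane genes Col23a1 rose, and Col13a1, Col17a1 and Col25a1 lay between −0.08 and 0.12 without passing. Col13a1 and Col25a1 have known roles where nerve meets muscle. Col26a1 differed by −0.02 ± 0.08.

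Col4a1, Col4a2, Col15a1 and Col18a1 are also made by vessel cells. The list of 10 endothelial markers averaged 8.38 and 8.04 in mdm mutant mice, against 8.60 and 8.52 in wild type mice. Among them 0 rose and 2 fell, Pecam1 (−0.33 ± 0.07, adjusted p = 0.0368) and Robo4 (−0.44 ± 0.10, adjusted p = 0.0435). The share that fell was 20.0%, against 6.36% of all probe sets and 11.7% of the brighter ones. Pericyte and smooth muscle markers averaged 8.98 and 8.88 in mdm mutant mice, against 8.97 and 8.97 in wild type mice. Of these 8 markers 0 rose and 1 fell, the channel subunit Abcc9 (−0.42 ± 0.05, adjusted p = 0.013). Here the share that fell was 12.5%, close to the 11.7% of the brighter probe sets, to which all 8 belong. Acta2 stood at 0.44 ± 0.13 (adjusted p = 0.0844) and passed with the hybridization controls (0.55, adjusted p = 0.0384). Myh11 stood at −0.22 ± 0.09 without passing. The 8 differences were 4 positive and 4 negative. The part of vessel cells in the basement membrane collagens was not tested.

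Fibroblasts make most interstitial collagen. Their 13 markers averaged 10.13 and 10.07 in mdm mutant mice, against 10.03 and 10.01 in wild type mice, and 1 rose, the proteoglycan lumican (Lum, 0.42 ± 0.05, adjusted p = 0.013). Gsn and Tnxb stood at 0.51 ± 0.13 and 0.22 ± 0.06 without passing. The fibroblast list was split, with 8 positive and 5 negative differences. Mutant values lay fully above wild type values in 6 of its markers and fully below in 3. Together these are 69.2% of the list, against 60.9% of all probe sets. The share that rose, 7.69%, stands beside 6.46% of all probe sets. Macrophage markers averaged 8.74 and 8.89 in mdm mutant mice, against 8.29 and 8.21 in wild type mice. Of these 10 markers 4 rose and 0 fell (Mpeg1, Fcgr3, Cd68 and Lyz2, by 1.54 ± 0.15, 0.72 ± 0.07, 0.97 ± 0.10 and 1.14 ± 0.13). Schwann cell markers averaged 8.30 and 8.26 in mdm mutant mice, against 8.28 and 8.26 in wild type mice, and 0 of 8 passed. Adipocyte markers averaged 9.60 and 9.78 in mdm mutant mice, against 9.35 and 8.62 in wild type mice, and 0 of 5 passed. The part of these cells in the collagen values was not tested.

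Enzymes and chaperones that modify collagen chains in the endoplasmic reticulum moved in both directions. Among the 17 with a probe set, 1 rose, 3 fell and 13 did not pass, with a median of −0.01. The share called in either direction was 23.5%, against 12.8% of all probe sets. It was close to the 21.7% of the brighter probe sets, to which all but 1 of the 17 belong. P4ha2 and P4ha1, the catalytic subunits of prolyl 4-hydroxylase, which stabilises the triple helix, fell. P4ha2 read 8.37 and 8.29 in mdm mutant mice, against 8.75 and 9.0 in wild type mice (−0.54 ± 0.09, adjusted p = 0.0249). P4ha1 read 7.94 and 7.93 in mdm mutant mice, against 8.18 and 8.24 in wild type mice (−0.27 ± 0.05, adjusted p = 0.0313). The collagen chaperone Serpinh1 also fell (−0.26 ± 0.06, adjusted p = 0.0459). With the hybridization controls P4ha2 passed and P4ha1 and Serpinh1 did not (adjusted p = 0.0817 and 0.136). Ppib, the prolyl isomerase that helps the helix fold, rose, with 10.89 and 10.91 in mdm mutant mice, against 10.48 and 10.46 in wild type mice (0.43 ± 0.05, adjusted p = 0.0111).

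Of 15 genes that mature and crosslink collagen outside the cell, 2 rose, 0 fell and 13 did not pass, with a median of 0.11. The share called in either direction was 13.3%, against 12.8% of all probe sets. Loxl1 and Lox are lysyl oxidases, which start the crosslinks of collagen and elastin. Loxl1 read 10.01 and 9.83 in mdm mutant mice, against 9.32 and 9.16 in wild type mice (0.68 ± 0.09, adjusted p = 0.0138). Lox read 9.28 and 9.30 in mdm mutant mice, against 8.73 and 8.92 in wild type mice (0.46 ± 0.08, adjusted p = 0.023). Tll1, a protease of the family that trims procollagen, stood at 0.24 ± 0.06 (adjusted p = 0.0687).

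Of 11 collagen receptors, 2 rose, 0 fell and 9 did not pass, with a median of 0.08. The share called was 18.2%, against 12.8% of all probe sets. Antxr1, a surface protein that binds collagen, and Itgb1, the shared subunit of the collagen-binding integrins, rose by 0.42 ± 0.08 and 0.32 ± 0.06 (adjusted p = 0.0291 and 0.0345). The platelet receptor Gp6 stood at −0.20 ± 0.05 (adjusted p = 0.0577). Among 16 other proteins with a collagen domain, 3 rose, 2 fell and 11 did not pass, with a median of 0.07. Here the share called was 31.2%. The scavenger receptor Colec12 and the complement subunits C1qb and C1qa rose (0.49 ± 0.05, 0.77 ± 0.11 and 0.60 ± 0.10), and Scara5 and, named because the count is small, Emid1 fell (−0.34 ± 0.05 and −0.59 ± 0.10).

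Of 18 signals and targets of fibrosis, 7 rose (38.9%), 0 fell and 11 did not pass, with a median of 0.23, against −0.02 for all probe sets. The growth factors Tgfb2 and Tgfb3 rose by 0.65 ± 0.07 and 0.49 ± 0.09, and the cytokine Il6 by 0.28 ± 0.05. Il6 belongs to the dimmer 50% of the array. It read 6.20 and 6.15 in mdm mutant mice, against 5.87 and 5.91 in wild type mice. Named after their values were seen, the matricellular genes Ccn2 and Postn rose by 2.31 ± 0.45 and 0.85 ± 0.17 (adjusted p = 0.0342 and 0.0365). Ccn2 read 11.76 and 12.13 in mdm mutant mice, against 8.93 and 10.35 in wild type mice, which are far apart from each other. Of the 26 called genes that the naming rule takes from these lists and from the cell type markers, 4 passed with each mouse left out in turn, Tgfb2, Mpeg1, Cd68 and Myf5, and the other 22 missed the threshold without at least 1 of the mice.

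**Figure D5:**
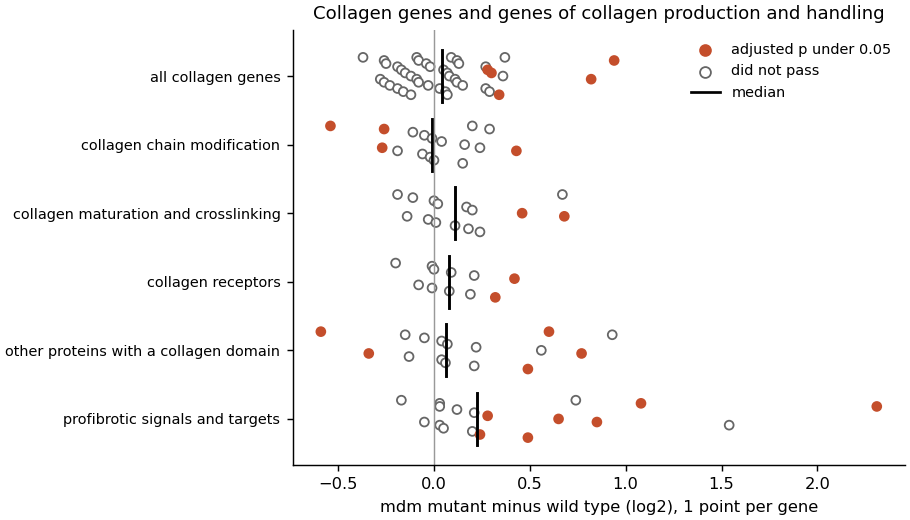
Difference between mdm mutant and wild type muscle (x axis, log2 scale) of every measured gene in 6 groups, 1 point per gene, with filled points at an adjusted p under 0.05 and a black line at each median. The medians run between −0.01 for collagen chain modification and 0.23 for profibrotic signals and targets, and the collagen genes have a median of 0.04.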

How the data were processed

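Affymetrix arrays measured biotin-labelled RNA of mouse quadriceps (labels' protocols). The deposited log2 values are RMA values, which the submitters' processing notes name without a version, and the 4 columns hold the same sorted values (26 of 16553 ranks differ by over 1e-06), so a shift shared by most genes is not visible. Sequencing depth has no counterpart, and the number of arrays limits the precision. After removal of 61 array controls, 16492 probe sets were fitted by lmFit and eBayes of limma 3.58.1 under R 4.3.3, without covariates, mdm mutant minus wild type, with Benjamini-Hochberg adjustment. Symbols came from the platform annotation (15270 probe sets) and, for 988 others, from the Entrez number of the ID in RefSeq's gene table (GRCm38.p6). The replicate numbers only name mice.

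The members, classes and lists were chosen with earlier results of these data known. All collagen genes were named. From each list the called genes with the smallest p, at most 4, or at least 3 genes in all, were named; others are marked, and 1 gene that the rule takes is not reported here. Alternatives were a filter on dim probe sets, 3 other scalings, trend and robust on, no variance moderation, each mouse left out, and thresholds of 0.10 and 0.01. The fit was tested on simulated data, where it called 59.6% of rises of 0.5 and 96.4% of rises of 1. Smaller changes were not simulated, so a gene that did not pass is not shown to be unchanged. The figures were drawn with matplotlib 3.10.9.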

Additional observations from a re-analysis of the deposited data

How the results depend on the processing

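The count of 5 collagen genes higher and 0 lower in mdm mutant muscle was the same after centring on medians and after repeated quantile normalization. It was 3 higher without the dimmer 50% of probe sets, where fewer genes were tested, and 9 higher with the hybridization controls, where 3432 probe sets were called in all in place of 2115. With trend and robust on 1 was lower (Col4a6). Without variance moderation 0 collagen genes and 1 probe set passed, and at an unadjusted p under 0.05 there were 8. At a threshold of 0.10 there were 8 higher and 1 lower of 3719 calls, and at 0.01 there were 2 higher of 304 calls. With 1 mouse left out, where the lone mouse is assumed to vary like the other group, 1 to 3 were higher, 0 to 2 lower and 490 to 1182 probe sets called.

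No called collagen gene changed sign under any alternative run. Differences that passed under neither setting turned with the hybridization controls for Col1a2 (0.02), Col24a1 (0.03), Col20a1 (0.08), Col6a2 (0.07), Col6a4 (0.02), Col25a1 (0.03), Col26a1 (0.10), Sp7 (0.01) and Pvalb (0.08); the construction of this setting adds the same amount to every difference. With 1 mouse left out, differences ran between −0.14 and 0.85 for Col2a1, −0.13 and 0.26 for Col5a1, −0.57 and 0.01 for Col11a1, −0.50 and 0.13 for Col11a2, −0.22 and 0.06 for Col24a1, −0.04 and 0.19 for Col4a2, −0.01 and 0.12 for Col9a1, −0.01 and 0.15 for Col9a3, −0.01 and 0.18 for Col14a1, −0.14 and 0.06 for Col6a2, −0.01 and 0.06 for Col18a1, 0.00 and 0.24 for Col13a1, −0.12 and 0.09 for Col26a1, and −0.07 and 0.00 for Pvalb. The mean over several probe sets of a gene was not run because each collagen gene had 1. No paired analysis was possible because the labels give no number shared between groups.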
